A study of Sus scrofa with 30 samples.

Results

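The phospholipase A2 genes of the preimplantation pig embryo were taken as the 7 genes PLA2G4A, PLA2G4F, PLA2G6, PLA2G7, PLA2G12A, PLA2G12B and PLA2G16 and the other symbols beginning with PLA2G in the count table of all embryos, which added PLA2G15, PLA2G2F and PLA2G4B. They make 10 of the 13103 genes of that table and 10 of the 19 PLA2G symbols of the Sscrofa11.1 gene annotation. The other PLA2G symbols of the annotation (PLA2G1B, PLA2G2A, PLA2G2C, PLA2G2D, PLA2G2E, PLA2G3, PLA2G4D, PLA2G4E and PLA2G5) are not in the filtered table and were not analysed here. Levels were set side by side over 30 single embryos, 5 female and 5 male on each of Days 8, 10 and 12 after insemination. The embryos were whole, with embryonic disc and trophectoderm, came from German Landrace × Pietrain gilts inseminated with sperm of the same boar, and received no other treatment than the cycle synchronisation that all gilts shared. Each day had its own 4 gilts, so embryos of a day include littermates, and the study chose at least a female and a male of the same sow in each stage. The labels do not tie embryos to gilts, so no test takes litter into account, p-values may be too small for that reason, and day and gilt cannot be told apart.

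Phospholipases A2 cut the fatty acid from the middle position of a membrane phospholipid and leave a lysophospholipid. The freed acid is often arachidonate, from which cyclooxygenases make prostaglandins, signals that pass between conceptus and uterus before attachment. The family has cytosolic calcium-dependent enzymes (PLA2G4A, PLA2G4B, PLA2G4F), a calcium-independent enzyme (PLA2G6), a lysosomal enzyme (PLA2G15), a membrane-bound acyl transferase and phospholipase (PLA2G16), secreted enzymes (PLA2G2F, PLA2G12A) with a secreted relative that lacks catalytic activity (PLA2G12B), and a hydrolase of platelet-activating factor (PLA2G7).

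Libraries held 6068212 to 34002508 counts, the smallest being a Day 12 female embryo. Levels are CPM (counts divided by the TMM-scaled library total, times a fixed factor), given as the mean ± SD of each day's 10 embryos, and a gene at 3 counts or fewer in an embryo was taken as at the floor, which lay at 0.434 CPM in the smallest library. A gene was called between days at an adjusted p under 0.001 and a log2 fold change beyond 1 (edgeR quasi-likelihood test, Benjamini-Hochberg adjustment over all genes), and all fold changes and adjusted p between days below come from that test. The summed level of 7 trophectoderm markers had medians of 24490, 44489 and 13892 CPM on Days 8, 10 and 12, and that of 5 epiblast markers 41.7, 18.5 and 2.55 CPM, with NANOG, SOX2 and PRDM14 at the floor in every Day 12 embryo. The sum of 6 hypoblast markers had medians of 297.2, 177 and 464 CPM and spread from 169 to 1247 CPM over the Day 12 embryos. Of the 6 blood and leukocyte markers HBB was the one in the table, with up to 8.36 CPM on Day 12. The sum of 4 of 6 endometrial markers had medians of 308, 807 and 3732 CPM and was carried by UPTI alone. On Day 12 UPTI had a mean of 4053 CPM, and ESR1, MSX1 and HOXA10 had means of 1.29, 2.17 and 1.53 CPM. The part of these cell types in the results below was not tested, and in whole embryos fewer cells of a type and less RNA per cell cannot be told apart.

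PLA2G15, the lysosomal enzyme, took most of the reads of the family on each day (chromosome 6, 28820620 to 28832768). Its level ran from 353 to 642 CPM on Day 8 (median 475), from 326 to 595 CPM on Day 10 (median 371) and from 135 to 512 CPM on Day 12 (median 239). The ranges of the days overlapped, and the 2 highest Day 12 embryos, d12_f_289 at 512 CPM and d12_f_271 at 439 CPM, lay within the Day 8 range. On Day 8 it held 83.2 ± 2.48% of the reads of the 10 genes, followed by 80.3 ± 2.85% on Day 10 and by 67.4 ± 10.8% in the Day 12 embryos, and it ranked first in 10 of 10 embryos on every day. In the Day 12 embryo with the lowest share, d12_m_275, it was 48.3%. These are shares of reads, not of molecules, since gene length was not taken into account. By mean level it was at rank 309 of all genes on Day 8, and at ranks 422 and 576 on the later days. The log2 fold change was -0.27 (SE 0.17, adjusted p = 0.171) from Day 8 to Day 10, -0.56 (SE 0.17, adjusted p = 0.00496) from Day 10 to Day 12 and -0.84 (SE 0.17, adjusted p = 6.13e-05) from Day 8 to Day 12, so PLA2G15 was not called in any of the 3 comparisons. Both steps missed the threshold on the adjusted p and the fold limit, and Day 12 over Day 8 missed the fold limit only.

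Behind PLA2G15 the order by reads changed with the day. On Day 8 PLA2G4F was second in 8 embryos and PLA2G6 in 2. On Day 10 PLA2G12A was second in 5 and PLA2G16 in 5, and on Day 12 PLA2G4A was second in 5, PLA2G4F in 3, and PLA2G12A and PLA2G12B in 1 each. The ratio of PLA2G15 to the second gene had a median of 17.3 on Day 8 (range 7.62 to 23.3), 13.5 on Day 10 (6.36 to 22.1) and 7.14 on Day 12 (3.30 to 22.0). The 10 genes summed to 588 ± 85.2, 505 ± 97.9 and 396 ± 108 CPM on Days 8, 10 and 12. Without PLA2G15 the sum was 97.3 ± 8.21, 98.7 ± 20.9 and 121.4 ± 26.9 CPM.

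**Figure D1:**
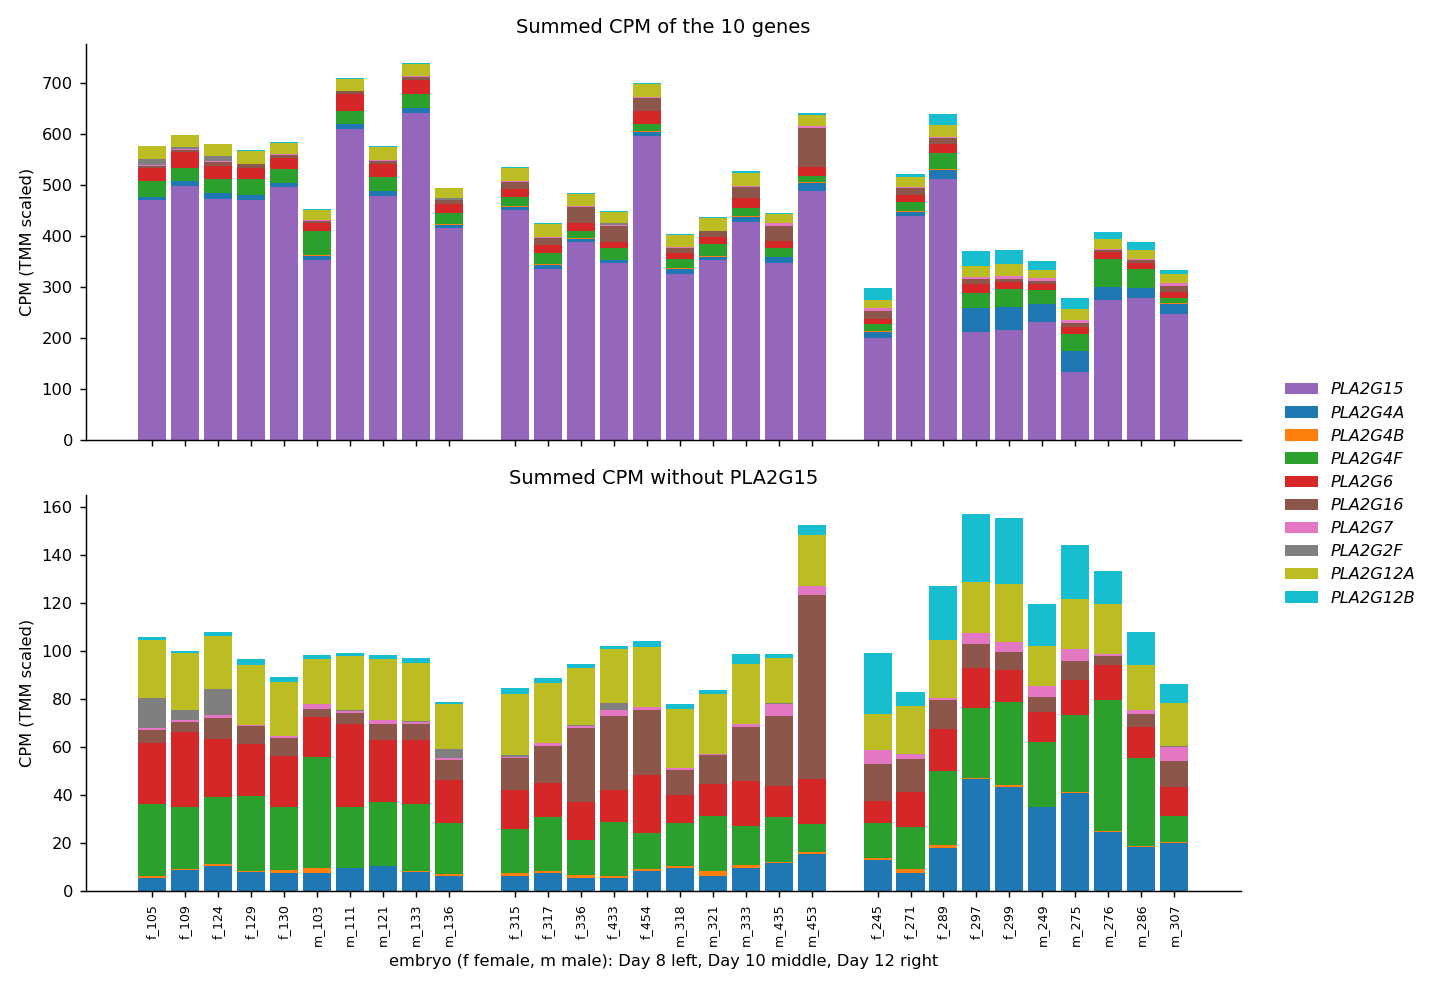
Stacked bars of the level of each gene (y axis, TMM-scaled CPM) in each of the 30 embryos (x axis, Day 8 left, Day 10 middle, Day 12 right), above for the 10 genes and below without PLA2G15. PLA2G15 is the tallest segment in 10 of 10 embryos of every day, and the segments of PLA2G4A and PLA2G12B are widest among the Day 12 embryos.

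Between days, 1 of the 10 genes was called for Day 10 against Day 8 (PLA2G16, higher), where 14.1% of all genes were called (9.88% higher, 4.20% lower). For Day 12 against Day 10 it was 3 of 10 (PLA2G4A and PLA2G12B higher, PLA2G16 lower), beside 23.3% of all genes (14.9% higher, 8.39% lower). For Day 12 against Day 8 it was 4 of 10 (PLA2G4A, PLA2G7 and PLA2G12B higher, PLA2G2F lower), beside 32.5% of all genes (22.0% higher, 10.4% lower). Among these PLA2G2F passed the filter of a single day on Day 8 only, the day where it was high. Groups of 10 embryos did not overlap for PLA2G16 from Day 8 to Day 10 and for PLA2G12B in both comparisons with Day 12, against 22.0%, 16.6% and 31.7% of all genes in the 3 comparisons. Scaling by library size alone moved the median log2 fold change of all genes from 0.03 to -0.15 for Day 10 against Day 8 and from 0.04 to 0.24 for Day 12 against Day 10, and the share of higher genes among those called from 70.2% to 55.9% and from 64.0% to 72.9%.

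**Figure D2:**
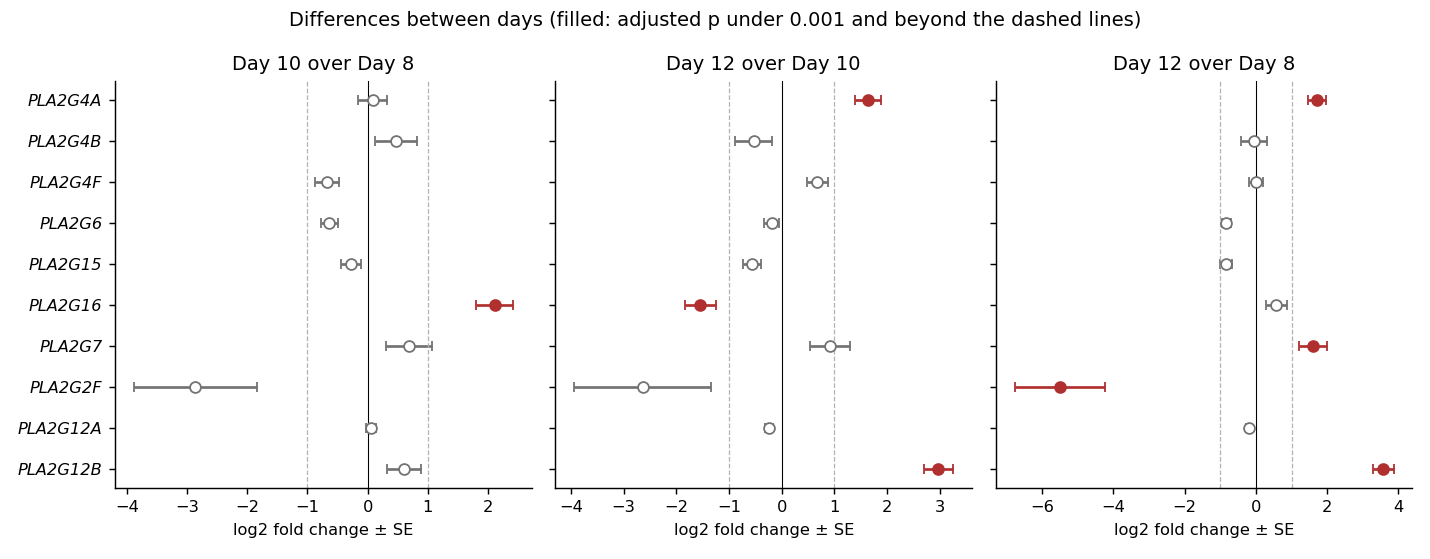
Log2 fold change (x axis, with SE as bars) of each gene (y axis) in the 3 comparisons between days, where filled points passed an adjusted p under 0.001 and the dashed lines stand at a log2 fold change of 1 in either direction. PLA2G16 was called with a rise of 2.11 and then a fall (-1.54), and PLA2G12B had the largest called rise, 3.57 from Day 8 to Day 12.

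Of the cytosolic enzymes, PLA2G4A, which releases arachidonate at intracellular membranes, was higher on Day 12 than on both earlier days (chromosome 9, 127853581 to 128164825). It measured 5.59 to 10.5 CPM on Day 8 (median 7.98), 5.39 to 15.6 CPM on Day 10 (median 7.99) and 7.74 to 46.6 CPM on Day 12 (median 22.3). The Day 12 range reached into those of Days 8 and 10 through d12_f_271 at 7.74 CPM, and into that of Day 10 only through d12_f_245 at 13.0 CPM. The other 8 Day 12 embryos lay above every earlier one. The log2 fold change was 1.63 (SE 0.25, adjusted p = 1.36e-06) over Day 10 and 1.71 (SE 0.25, adjusted p = 3.96e-07) over Day 8. From Day 8 to Day 10 it was 0.08 (SE 0.25, adjusted p = 0.798), which turned to -0.11 with library size alone.

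The annotated span of PLA2G4A overlaps that of PTGS2, the inducible cyclooxygenase that uses its product, and the strand setting of the counting is not given in the sources used here. PTGS2 measured 815 ± 151 CPM on Day 8, 132 ± 60.9 CPM on Day 10 and 563 ± 767 CPM on Day 12, where the range was 171 to 2721 CPM. On Day 8, when every embryo had over 618 CPM of PTGS2, PLA2G4A was at 5.59 to 10.5 CPM, and in d12_m_307, with 2721 CPM of PTGS2, PLA2G4A was at 20.0 CPM. No share of the PLA2G4A counts from PTGS2 reads was measured.

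**Figure D3:**
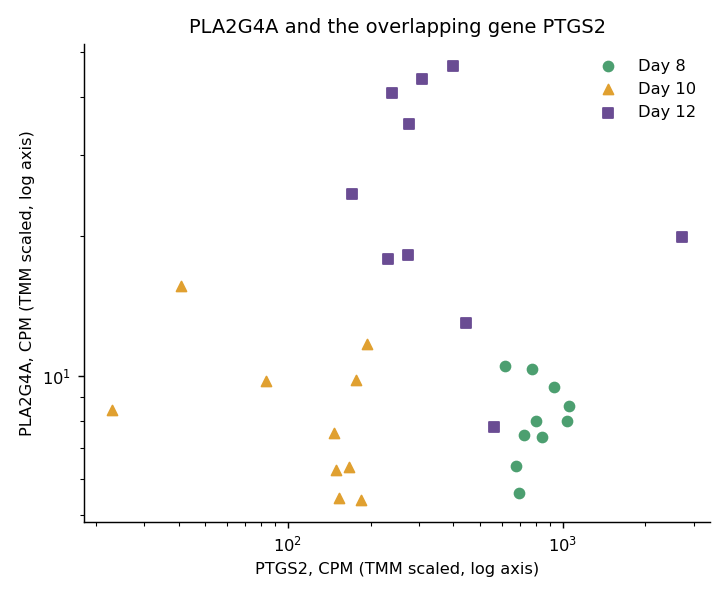
Level of PLA2G4A (y axis) against that of PTGS2 (x axis) in each of the 30 embryos, both in TMM-scaled CPM on log axes, with 1 symbol per day. Day 8 embryos have the higher PTGS2 of the first 2 days with PLA2G4A at 5.59 to 10.5 CPM, and 8 of 10 Day 12 embryos lie above every other embryo for PLA2G4A.

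PLA2G4F, another enzyme of the cytosolic group, was 28.9 ± 6.71 CPM on Day 8, 18.1 ± 3.80 CPM on Day 10 and 28.8 ± 12.6 CPM on Day 12 (chromosome 1, 129200568 to 129218417). Day 8 embryos ran from 21.3 to 46.3 CPM (median 27.2), Day 10 embryos from 11.6 to 23.0 CPM (median 18.3) and Day 12 embryos from 10.7 to 54.4 CPM (median 30.1). The Day 10 embryos lay low with slight overlap to Day 8, and the Day 12 embryos covered the ranges of both. Neither difference was called, at -0.68 (SE 0.20, adjusted p = 0.00445) for Day 10 over Day 8 and 0.67 (SE 0.20, adjusted p = 0.00409) for Day 12 over Day 10, and Day 12 over Day 8 was -0.0026 (SE 0.20, adjusted p = 0.991). PLA2G4B, on the same chromosome (129514801 to 129524365), was low, at 0.742 ± 0.574, 1.05 ± 0.416 and 0.732 ± 0.406 CPM, with between 4 and 76 counts per Day 8 embryo. Its log2 fold changes were 0.48 (SE 0.35, adjusted p = 0.247), -0.54 (SE 0.35, adjusted p = 0.194) and, over Day 8 on Day 12, -0.06 (SE 0.35, adjusted p = 0.892).

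PLA2G6, the calcium-independent enzyme of membrane remodelling, was lower after Day 8 at differences under the fold limit, so it was not called (chromosome 5, 9713809 to 9777921). It was 16.9 to 34.3 CPM on Day 8 (median 25.0), 11.3 to 24.2 CPM on Day 10 (median 14.85) and 9.40 to 17.4 CPM on Day 12 (median 13.9). The Day 12 embryos overlapped the Day 8 embryos only between 16.9 and 17.4 CPM. The log2 fold change was -0.63 (SE 0.13, adjusted p = 0.000192) for Day 10 over Day 8 and -0.83 (SE 0.13, adjusted p = 2.43e-06) for Day 12 over Day 8. From Day 10 to Day 12 it was -0.19 (SE 0.13, adjusted p = 0.217), or 0.01 with library size alone.

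PLA2G16, which acts on phospholipids both as an acyl transferase and as a phospholipase, was highest on Day 10 (chromosome 2, 8410540 to 8444604). It was 3.29 to 8.77 CPM on Day 8 (median 6.48), 10.5 to 76.8 CPM on Day 10 (median 24.7) and 3.65 to 15.3 CPM on Day 12 (median 8.88). All Day 10 embryos lay above all Day 8 embryos, and the Day 10 and Day 12 ranges overlapped between 10.5 and 15.3 CPM. The log2 fold change was 2.11 (SE 0.30, adjusted p = 7.75e-07) for Day 10 over Day 8, and Day 12 was lower than Day 10, at -1.54 (SE 0.30, adjusted p = 4.29e-05). Day 12 over Day 8 was 0.57 (SE 0.30, adjusted p = 0.0847). Without the Day 10 male d10_m_453, the highest embryo, the values were 1.77 and -1.20, both still called. In this embryo PLA2G4A, at 15.6 CPM, and PLA2G12B, at 4.05 CPM, were also the highest of Day 10, and PLA2G4F, at 11.6 CPM, the lowest.

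PLA2G12B, the secreted relative without catalytic activity, had the largest called rise (chromosome 14, 75754525 to 75778933). It was 0.669 to 2.48 CPM on Day 8 (median 1.54), 1.09 to 4.05 CPM on Day 10 (median 2.10) and 6.001 to 28.5 CPM on Day 12 (median 19.8). The lowest Day 12 embryo lay above every earlier one. The log2 fold change was 2.97 (SE 0.28, adjusted p = 1.15e-10) over Day 10 and 3.57 (SE 0.29, adjusted p = 2.53e-12) over Day 8, and 0.60 (SE 0.28, adjusted p = 0.0627) from Day 8 to Day 10. A tRNA gene lies within its annotated span.

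PLA2G12A, the secreted enzyme of the same group, was the most even of the 10 genes (chromosome 8, 112483322 to 112512520). It was 22.7 ± 2.28 CPM on Day 8, 23.7 ± 2.18 CPM on Day 10 and 20.0 ± 2.95 CPM on Day 12, with ranges of 18.8 to 25.2, 18.7 to 25.8 and 15.05 to 24.3 CPM. The SD of its log2 level stood at the 27.4th, 12.6th and 11.8th percentile of all genes on the 3 days. The log2 fold change was 0.06 (SE 0.08, adjusted p = 0.573) for Day 10 over Day 8, which turned to -0.12 with library size alone, and -0.24 (SE 0.08, adjusted p = 0.0137) for Day 12 over Day 10. Day 12 over Day 8 was -0.18 (SE 0.08, adjusted p = 0.0484).

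PLA2G7, which inactivates platelet-activating factor, was low throughout (chromosome 7, 41488152 to 41531383). It was 0.687 to 2.03 CPM on Day 8 (median 1.06), 0.509 to 5.07 CPM on Day 10 (median 1.32) and 0.807 to 6.11 CPM on Day 12 (median 4.38). On Day 12, 6 embryos had 4.18 CPM or more and 4 had 2.10 CPM or less. Day 12 over Day 8 was 1.60 (SE 0.39, adjusted p = 0.000551), a call that was lost in 12 of the 30 fits that left out 1 embryo each, with log2 fold changes of 1.47 to 1.73. Day 10 over Day 8 was 0.69 (SE 0.39, adjusted p = 0.133) and Day 12 over Day 10 was 0.91 (SE 0.38, adjusted p = 0.0399). The annotated span of PLA2G7 overlaps that of LOC110261533, and no share of its counts from that gene was measured.

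PLA2G2F, a secreted enzyme, was read in few embryos (chromosome 6, 78413459 to 78423311). On Day 8 the 5 female embryos had 269, 84, 356, 0 and 0 counts and the 5 male embryos 3, 2, 0, 3 and 97 counts. On Day 10 a female embryo had 66 counts, another 11, and a male embryo 10, with the rest at 3 or fewer. On Day 12 no embryo had more than 6 counts. PLA2G2F passed the CPM filter of the study within Day 8 but not within Day 10 or Day 12. A fall from Day 8 was thus favoured in advance, and its call below adds no support for one. PLA2G2F was at the floor in 6 of 10 embryos on Day 8, 7 on Day 10 and 8 on Day 12, so high counts came from a few embryos of each earlier day. Day 12 over Day 8 was called at -5.50 (SE 1.27, adjusted p = 0.000279), a fitted value that rests on those embryos and on counts at the floor, and that was not called in female embryos alone (adjusted p = 0.00459 by edgeR) or in male embryos alone (adjusted p = 0.0380 by edgeR). Day 10 over Day 8 was -2.86 (SE 1.02, adjusted p = 0.0177), or -4.39 without d10_f_433, and Day 12 over Day 10 was -2.64 (SE 1.29, adjusted p = 0.0790), or -1.11 without it.

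**Figure D4:**
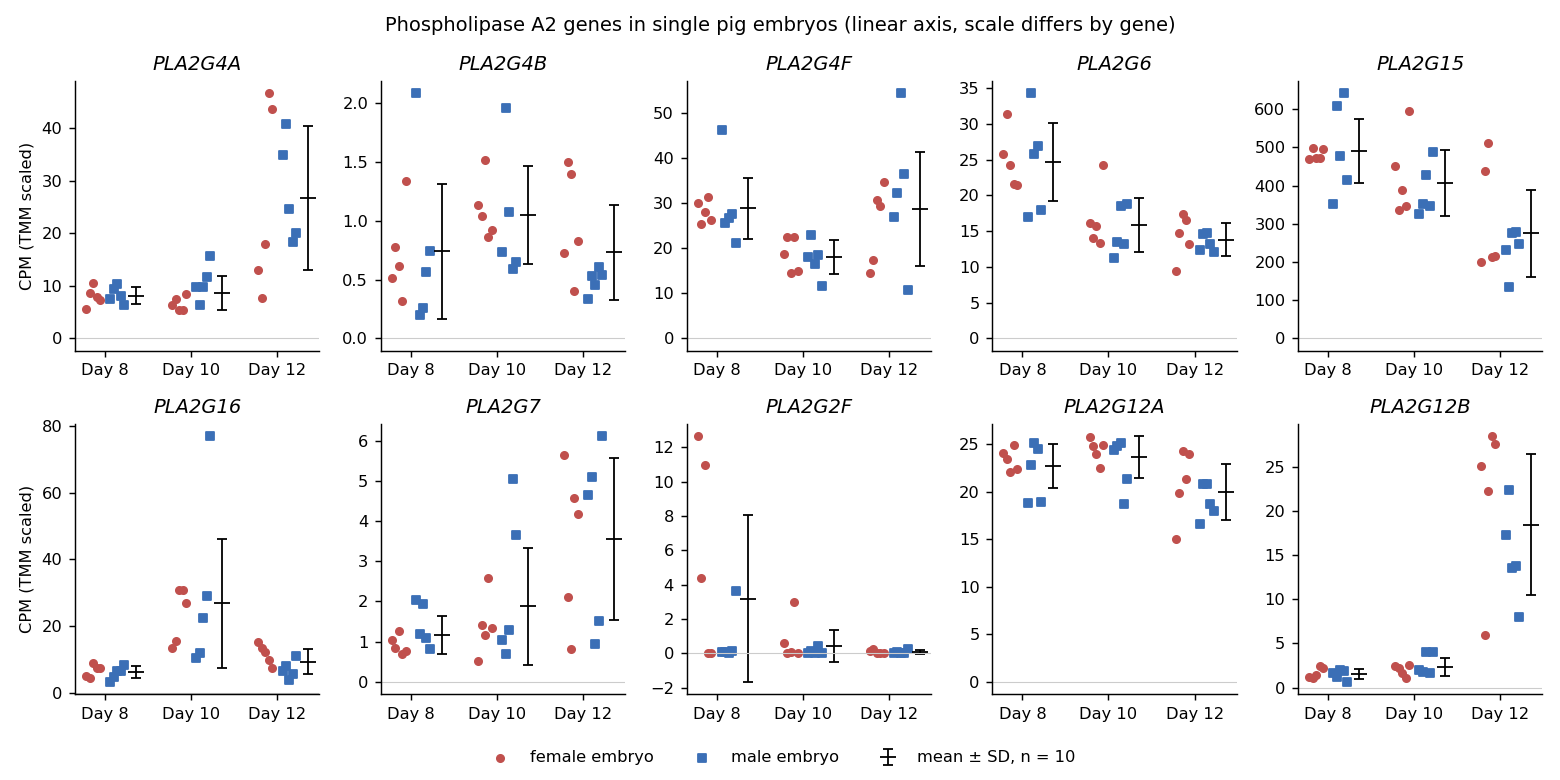
Level of each of the 10 genes (y axis, TMM-scaled CPM on a linear scale that differs by gene) in each embryo by day (x axis), with female embryos as circles, male embryos as squares and the mean ± SD of the 10 embryos of a day as bars. All Day 12 embryos exceed the earlier ones for PLA2G12B, all Day 10 embryos exceed the Day 8 embryos for PLA2G16, and PLA2G2F is near 0 in most embryos.

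The Day 12 embryos differed among themselves. In d12_f_271 both PLA2G4A, at 7.74 CPM, and PLA2G12B, at 6.001 CPM, were the lowest of the day while PLA2G15, at 439 CPM, was the second highest. In d12_f_297 and d12_f_299 PLA2G4A, at 46.6 and 43.6 CPM, and PLA2G12B, at 28.5 and 27.7 CPM, were the 2 highest. PLA2G4F was lowest in d12_m_307, at 10.7 CPM, and highest in d12_m_276, at 54.4 CPM.

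**Figure D5:**
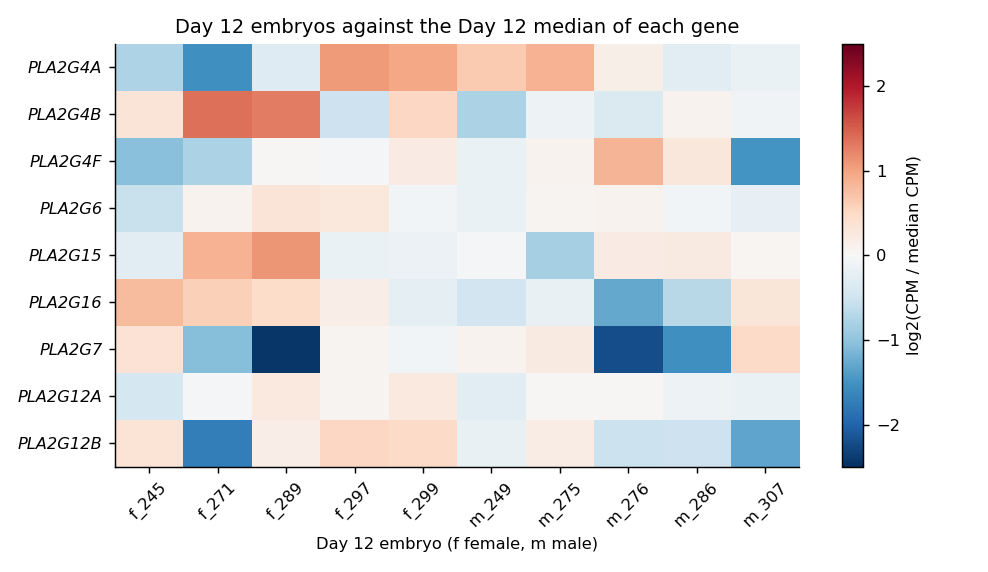
Color map of log2(CPM / median CPM of the Day 12 embryos) for 9 of the genes (rows, without PLA2G2F) in the 10 Day 12 embryos (columns). PLA2G7 spans the widest range, down to -2.44 in f_289, and PLA2G12A and PLA2G6 stay near 0.

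Between the sexes none of the 9, 9 and 8 members in the tables of Days 8, 10 and 12 was called at an adjusted p under 0.05 (edgeR quasi-likelihood test), where 0.658%, 0.223% and 0.123% of all genes were. The table of Day 8 lacks PLA2G4B, that of Day 10 lacks PLA2G2F, and that of Day 12 lacks both. Of all genes 4.59%, 2.36% and 22.7% had an unadjusted p under 0.05 on the 3 days. Among the members this held for 0 of 9 on Day 8, for 1 of 9 on Day 10 and for 1 of 8 on Day 12. On Day 10 it was PLA2G4A, where the females had 6.05 ± 1.23 CPM and the males 9.80 ± 3.21 CPM (female over male -0.70 on the log2 scale, SE 0.24, adjusted p = 0.99997 by edgeR). On Day 12 it was PLA2G16 (levels scaled within the table of the day, as for all sex comparisons), where the females had 12.5 ± 3.58 CPM and the males 7.15 ± 2.90 CPM (0.80, SE 0.31, adjusted p = 0.198 by edgeR). For no member did the 5 females and 5 males of a day separate without overlap, beside 1.59%, 0.848% and 4.62% of all genes. For PLA2G2F the Day 8 females had 5.80 ± 6.18 CPM and the males 0.818 ± 1.65 CPM (2.77, SE 1.42, adjusted p = 0.999 by edgeR), and the robust GLM of edgeR called it with a log2 fold change of 5.23 and an adjusted p of 0.00659. DESeq2 called none of the members on any day, and the robust GLM none on Days 10 and 12. No member was called for a sex difference that differed between days, the smallest unadjusted p being those of PLA2G16 (1.13, SE 0.57, adjusted p = 0.276 by edgeR) and PLA2G12B (1.002, SE 0.52, adjusted p = 0.288 by edgeR) for Day 12 against Day 10. Of all genes 0 were called in each of the 3 contrasts (edgeR quasi-likelihood test), with 100, 2473 and 2863 at an unadjusted p under 0.05. The robust GLM called 0 members for Day 10 against Day 8 and Day 12 against Day 10, and was not run for Day 12 against Day 8.

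Genes that act around the phospholipases A2 were taken from lists, chosen with earlier results of these data known. Beside the counts below, 9.88% of all genes were called higher and 4.20% lower for Day 10 over Day 8, 14.9% and 8.39% for Day 12 over Day 10, and 22.0% and 10.4% for Day 12 over Day 8, with median log2 fold changes of all genes of 0.03, 0.04 and 0.09. Values in parentheses are log2 fold changes of called genes, up to 4 per list and comparison.

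Of the 21 other phospholipases A and B and hydrolases of platelet-activating factor in the table, 4 were higher and 2 lower for Day 10 over Day 8 (median 0.30), 3 and 1 for Day 12 over Day 10 (median 0.06), and 4 and 1 for Day 12 over Day 8 (median 0.07). PLBD1, a phospholipase B-like protein, was 13.7 ± 3.90 CPM on Day 8, 203 ± 108 CPM on Day 10 and 1435 ± 701 CPM on Day 12, and was called in both steps (3.89 and 2.82) and over the whole span (6.71). For Day 10 over Day 8 the others were LIPH, which makes lysophosphatidic acid (-7.26), PLB1 (-3.05) and PAFAH2 (1.45), with LIPH at the floor in 7 and PLB1 in 6 of the 10 Day 10 embryos. For Day 12 over Day 10 they were PLB1 (2.37), PNPLA2, a triglyceride lipase (2.12), and PAFAH2 (-1.24), and the call of PLB1 was lost without d12_f_289 (1.88). For Day 12 over Day 8 they were LIPH (-6.18), PNPLA2 (2.60) and PNPLA6 (1.14).

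Of the 12 regulators and receptors, 3 were higher and none lower for Day 10 over Day 8 (median 0.71), 4 higher and 5 lower for Day 12 over Day 10 (median -0.41), and 4 and 2 for Day 12 over Day 8 (median -0.26). ANXA1, a calcium-bound protein known to inhibit phospholipase A2, was 13.1 ± 7.13, 55.0 ± 55.1 and 268 ± 180 CPM on the 3 days, and was called in both steps (2.07 and 2.28). S100A10 (1.62 and 1.55) was also called higher in both steps. ANXA2, its binding partner, was called higher in all 3 comparisons, for Day 10 over Day 8 (1.34) and Day 12 over Day 8 (2.38). Its call for Day 12 over Day 10, at 1.04, was outside the 4 largest changes of that step. PLA2R1, the receptor that binds secreted phospholipases A2, was at the floor in all 10 Day 8 embryos and in 4 of 10 on Day 10. On Day 12 it had 15.98 ± 12.6 CPM, called over Day 10 at 5.35 (SE 0.58, adjusted p = 2.26e-09 by edgeR). The Day 12 range was 0.434 to 40.5 CPM, with 1 embryo at the floor, d12_f_245 of the smallest library. MKNK2, a kinase, fell from 233 ± 48.6 CPM on Day 10 to 79.9 ± 20.5 CPM on Day 12 (-1.55). ANXA1 and S100A10 were called for Day 12 over Day 8 at 4.35 and 3.17.

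Of the 18 genes of re-acylation, which return fatty acid to lysophospholipid or activate it, 5 were higher and 1 lower for Day 10 over Day 8 (median 0.57), 4 and 9 for Day 12 over Day 10 (median -0.99), and 7 and 5 for Day 12 over Day 8 (median -0.09). ACSL6, a ligase of long-chain fatty acids, fell from 837 ± 128 CPM on Day 10 to 2.26 ± 1.24 CPM on Day 12 (-8.55, SE 0.26, adjusted p = 1.34e-22), and was lower than on Day 8 by the same test (-8.22). ACSL3, of the same group, rose from 52.3 ± 10.7 CPM on Day 8 to 1019 ± 808 CPM on Day 10 (4.28) and then fell to 170 ± 76.5 CPM (-2.59). For Day 10 over Day 8 the others were LPGAT1 (3.15), LPCAT2 (-2.58) and MBOAT2 (1.998), and for Day 12 over Day 10 LPCAT4 (-2.49) and AGPAT1 (2.45). For Day 12 over Day 8 they were MBOAT2 (4.23), LPGAT1 (3.35) and ACSL5 (4.09), the last at the floor in 8 of 10 Day 8 embryos and at 4.68 without d08_m_103.

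Of the 7 genes of lysophospholipid removal, 1 was higher and none lower for Day 10 over Day 8 (GDPD1, 2.06, list median 0.08). None was higher and 1 lower for Day 12 over Day 10 (GDPD3, -3.52, list median -0.28), and 1 and 1 for Day 12 over Day 8 (GDPD1, 2.95, and GDPD3, -2.43, list median -0.12).

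Of the 8 genes that use arachidonate, 1 was higher and 1 lower for Day 10 over Day 8 (median 0.22), 1 and 2 for Day 12 over Day 10 (median -0.47), and 1 and 2 for Day 12 over Day 8 (median -0.49). The gene with the largest change was ALOX12, a lipoxygenase, at 0.720 ± 0.465 CPM on Day 8, 54.4 ± 69.9 CPM on Day 10 and 7.49 ± 5.02 CPM on Day 12 (6.20, then -2.84, and 3.36 over the whole span). PTGS2 fell by 2.63 on the log2 scale and then rose by 2.09, and without d12_m_307 the rise was 1.29 and still called (adjusted p = 0.000155 by edgeR). PTGES, a prostaglandin E synthase, was 534 ± 60.9, 816 ± 298 and 79.3 ± 48.1 CPM, called lower on Day 12 than on Day 10 (-3.37) and on Day 8 (-2.75), as was PTGES3 than on Day 8 (-1.10).

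By their log2 levels over the 30 embryos, the genes most like PLA2G15 were RAB5C (Pearson r 0.94), CAMK1 (0.91) and IER2 (0.90). Those most like PLA2G4F were SEC31A (0.86), ELF4 (0.83) and FMN1 (0.83), and among those most like PLA2G12A were UBE2Z (0.77) and SLC25A5 (0.73). The embryos share day and library scaling, and these values are a description.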

How the data were processed

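Poly(A) RNA of 30 single embryos was sequenced from stranded libraries. Per the study's methods, the authors used Trim Galore for trimming and Galaxy for mapping to Sscrofa11.1 (NCBI annotation), and filtered genes by CPM; aligner, counter and cutoff are not given in the sources used here. The authors deposited unnormalised counts of reads for each NCBI gene, in a table of all embryos (13103 genes) and a table for each day (11405, 11675 and 12220 genes). Symbols and positions came from the RefSeq gene table of Sscrofa11.1, which matched all 13103 identifiers.

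From these counts, genes were tested with edgeR 4.0.16 (R 4.3.3, limma 3.58.1), by its quasi-likelihood F test (robust, TMM factors, p-values adjusted after Benjamini-Hochberg), in 1 fit of 3 days, within each day for sex (adjusted p under 0.05), and in 1 fit of 6 groups for the interaction. The SE is the size of the log2 fold change over the square root of F. Similar genes used log2 CPM with a prior count of 2. Alternatives were the robust GLM, DESeq2 1.42.0, RLE factors, library size alone, 10 counts in 5 embryos, sex as a covariate, fits of 2 days or of 1 sex, a threshold test at a log2 fold change of 1, no fold limit, and each embryo left out. Only the edgeR quasi-likelihood fit was tried on simulated counts, with as many genes raised as lowered. The unequal shifts between the days were not simulated, and no result here rests on that trial. Figures used matplotlib 3.10.9.

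Every member is described; genes outside the family come from lists, up to 4 per comparison, those called with the largest change, and the 3 most alike genes for the 3 members with the highest mean CPM, of which 1 gene is not reported here. The plan asked for levels per kilobase, but no transcript lengths were at hand, so shares are of reads and the order of genes by molecules was not analysed. Members and lists were chosen with earlier results of these data known, and the interaction alternatives and the refits of the list genes without each embryo were added after seeing the data. Embryos are separate samples, but litter is unknown, and p-values measure the spread between these embryos. Counting error limits genes near the floor.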

Additional observations from a re-analysis of the deposited data

Results flagged for a closer look

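In 90 groups (each gene over the 10 embryos of a day and over the 5 of a day and sex), 11 values stood farther from their nearest neighbour than Dixon's 95% critical value allows. That value flags about 5% of groups by chance if levels are normally distributed, which was not checked for these CPM. PLA2G2F was at the floor in most embryos of each day, so the 5% cannot serve as a baseline for it. The groups of a day contain those of its sexes, so the flags are not independent. The Day 8 male d08_m_103 stood high in PLA2G4F, at 46.3 CPM, both among all Day 8 embryos (next 31.3 CPM) and among the males (next 27.6 CPM), and in PLA2G4B among the males, at 2.08 CPM (next 0.743 CPM). The Day 10 male d10_m_453 stood high in PLA2G16, at 76.8 CPM, in both groups (next 30.8 and 28.9 CPM). PLA2G2F stood high in d10_f_433, at 2.999 CPM in both groups (next 0.622 CPM), in d08_m_136 among the Day 8 males, at 3.60 CPM (next 0.155 CPM), and in d10_m_435 among the Day 10 males, at 0.456 CPM (next 0.130 CPM). PLA2G6 stood high in d10_f_454 among the Day 10 females, at 24.2 CPM (next 16.1 CPM). PLA2G12B stood low in d12_f_271 among the Day 12 females, at 6.001 CPM (next 22.3 CPM).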

How the results depend on the processing

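With the robust GLM, DESeq2, RLE factors, library size alone, 10 counts in 5 embryos, sex as a term and 2 days in the fit, 1, 3 and 4 members were called for Day 10 over Day 8, Day 12 over Day 10 and Day 12 over Day 8, the same genes as in the report. Leaving out 1 embryo gave 1 to 1, 3 to 3 and 3 to 4, the loss being PLA2G7. With female embryos only, 1 (PLA2G16), 2 and 1 (PLA2G12B) were called, PLA2G4A, PLA2G7 and PLA2G2F losing their calls for Day 12 over Day 8, and with male embryos only 0, 2 and 3, where for Day 12 over Day 8 PLA2G15 was added (-1.10, adjusted p = 0.000269 by edgeR) while PLA2G7 (1.37, adjusted p = 0.0537 by edgeR) and PLA2G2F (-3.58, adjusted p = 0.0380 by edgeR) lost their calls, and PLA2G16 was not called from Day 8 to Day 10 (2.38, adjusted p = 0.00141 by edgeR). PLA2G16 was not called for Day 12 over Day 10 in either sex alone (-1.08 in females, -2.14 in males). Tested against a log2 fold change of 1, the counts were 0, 1 and 1 (PLA2G12B), and at an adjusted p under 0.05 without a fold limit 4, 7 and 7. Between the sexes 0 members were called with each embryo left out, and the robust GLM called 1 on Day 8. With 1 embryo left out the mean share of PLA2G15 ran from 82.8% to 83.7% on Day 8, 79.7% to 80.7% on Day 10 and 65.6% to 69.6% on Day 12. It was 82.8%, 81.2% and 69.3% in females alone, and 83.6%, 79.4% and 65.5% in males alone. Such means of the same embryos cannot move far from the mean of all 10. Single Day 12 embryos ran from 48.3% to 84.1%. Causes were not tested.

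Sign changes all concerned differences that were not called. With the robust GLM they were PLA2G4F (0.035) and PLA2G4B (0.077) for Day 12 over Day 8, and between the sexes PLA2G4F on Day 8 (0.088) and PLA2G16 on Day 10 (0.14). With library size alone they were PLA2G4A (-0.11) and PLA2G12A (-0.12) for Day 10 over Day 8 and PLA2G6 (0.011) for Day 12 over Day 10. With female embryos only they were PLA2G4A for Day 10 over Day 8 (-0.29) and PLA2G4B for Day 12 over Day 8 (0.39), and with male embryos only PLA2G4F for Day 12 over Day 8 (0.12). With 1 embryo left out, PLA2G4A ran from -0.057 to 0.14 for Day 10 over Day 8, and for Day 12 over Day 8 PLA2G4F from -0.15 to 0.10 and PLA2G4B from -0.24 to 0.29. The sex difference on Day 8 ran from -0.17 to 0.061 for PLA2G4A, -0.17 to 0.17 for PLA2G4F, -0.071 to 0.19 for PLA2G6, -0.028 to 0.29 for PLA2G12B and -0.15 to 0.051 for PLA2G15. On Day 10 it ran from -0.035 to 0.20 for PLA2G4F, -0.041 to 0.23 for PLA2G6, -0.60 to 0.34 for PLA2G16, -0.042 to 0.22 for PLA2G15 and -0.026 to 0.51 for PLA2G4B, and on Day 12 from -0.40 to 0.15 for PLA2G4A and -0.31 to 0.20 for PLA2G7.

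No paired analysis was possible because each embryo number occurs in 1 group only and the labels do not give the sow that some female and male embryos shared. The length alternatives of the shares were not run, since no lengths were at hand. Depth limits PLA2G4B and PLA2G7, which had few counts in many embryos. PLA2G2F also had few counts in deep libraries, with 3 in d08_m_103 (33799980 counts in all) beside 84 in d08_f_109 (18313938 counts in all).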
